A study of Mus musculus with 24 samples.

Results

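AMPA and NMDA receptors are the ionotropic glutamate receptors that carry most fast excitatory transmission in the brain. AMPA receptors assemble from the subunits encoded by Gria1 to Gria4 and give the fast current, and the Gria2 product keeps calcium out of the channel once its RNA has been edited. NMDA receptors need the subunit encoded by Grin1 together with GluN2 subunits (Grin2a to Grin2d), which set kinetics and magnesium block, or GluN3 subunits (Grin3a, Grin3b), which lower calcium entry. In the nucleus accumbens (NAc) and the ventral tegmental area (VTA), regions of the reward circuit, these receptors are known for their part in the plasticity that follows drugs of abuse.

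The 10 subunit genes Gria1, Gria2, Gria3, Gria4, Grin1, Grin2a, Grin2b, Grin2c, Grin2d and Grin3a were chosen by symbol, with no measured value in the rule, from 30270 genes in 8 tables of normalized read counts. Earlier results of these data were known when they were chosen, so counts of them against a background are descriptions only. All 10 were present in every table and had a mean value above the minimum of 10 in every comparison. Grin3b, the other GluN3 gene, had 2 to 13 reads in the NAc libraries and 12 to 54 in the VTA libraries and was not a member. On GRCm38 (GENCODE M21), Grin3a lies on chr4:49661611-49845744, Grin1 on chr2:25291181-25319187, Grin2b on chr6:135713233-136173511 and Grin2d on chr7:45831883-45878378, all on the minus strand. The transcripts of a member share at most 0.800% of their 25-base words with another member.

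The 24 mRNA libraries came from bilateral micropunches of the NAc and the VTA of C57BL/6 mice. NAc and VTA libraries with the same number in their labels were taken to come from the same mouse. This gave 12 mice with 1 library of each region, a pairing that the labels do not state outright. There were 3 wild-type mice and 3 Vdr-/- mice injected with PBS, and 3 wild-type mice and 3 Vdr-/- mice injected intraperitoneally with morphine at 5 mg/kg and punched after 90 min. The study states this time for the NAc, and its methods give an earlier one for saline controls, so injection and time may not be told apart. Vdr encodes the vitamin D receptor. It was deleted in the germline and in every tissue, and the knockouts received a rescue diet rich in calcium and lactose from rearing on, so that genotype and diet cannot be told apart where the wild-type mice ate another diet. The sources used here give neither age nor sex for these mice. The sample descriptions of the PBS libraries carry a prefix that those of the morphine libraries lack, and anything that goes with it cannot be told apart from the injection. For morphine against PBS in the VTA, each deposited table has 5 libraries: wild-type PBS mouse 3 is missing from one and Vdr-/- PBS mouse 8 from the other.

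The libraries held 9328726 to 30184426 reads assigned to genes. Vdr had 1 to 17 reads (median 5.5) in the wild-type libraries and 0 to 17 (median 6.0) in the Vdr-/- libraries, so its level did not check the genotype labels. The NAc library of wild-type PBS mouse 2 stood apart. Spearman's rho between exon length and a gene's deviation from the NAc mean was -0.329 in it, against -0.077 to 0.178 in the other NAc libraries, and 9 of the 10 subunit genes have more than 6000 bp of exon. By injection, rho in the NAc was -0.329 to 0.065 after PBS and 0.032 to 0.178 after morphine. Taken the same way in the VTA, it was -0.193 to -0.026 after PBS and 0.0018 to 0.115 after morphine. The part of this length trend in the morphine differences was not tested. The summed level of 9 medium spiny neuron markers was 2464 to 5001 CPM (read counts scaled to the library's total) in the NAc and 261 to 322 in the VTA, and that of 8 dopamine neuron markers was 44.6 to 82.8 in the NAc and 125 to 2431 in the VTA. Both sums thus separated the regions without overlap, but the dopamine marker sum spread widely between the VTA libraries. It was 205, 409 and 125 CPM in wild-type morphine mice 1.0, 1.1 and 1.2, against 1910 to 2431 in wild-type PBS mice. In bulk tissue, fewer cells of a type and less RNA per cell cannot be told apart.

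**Figure D1:**
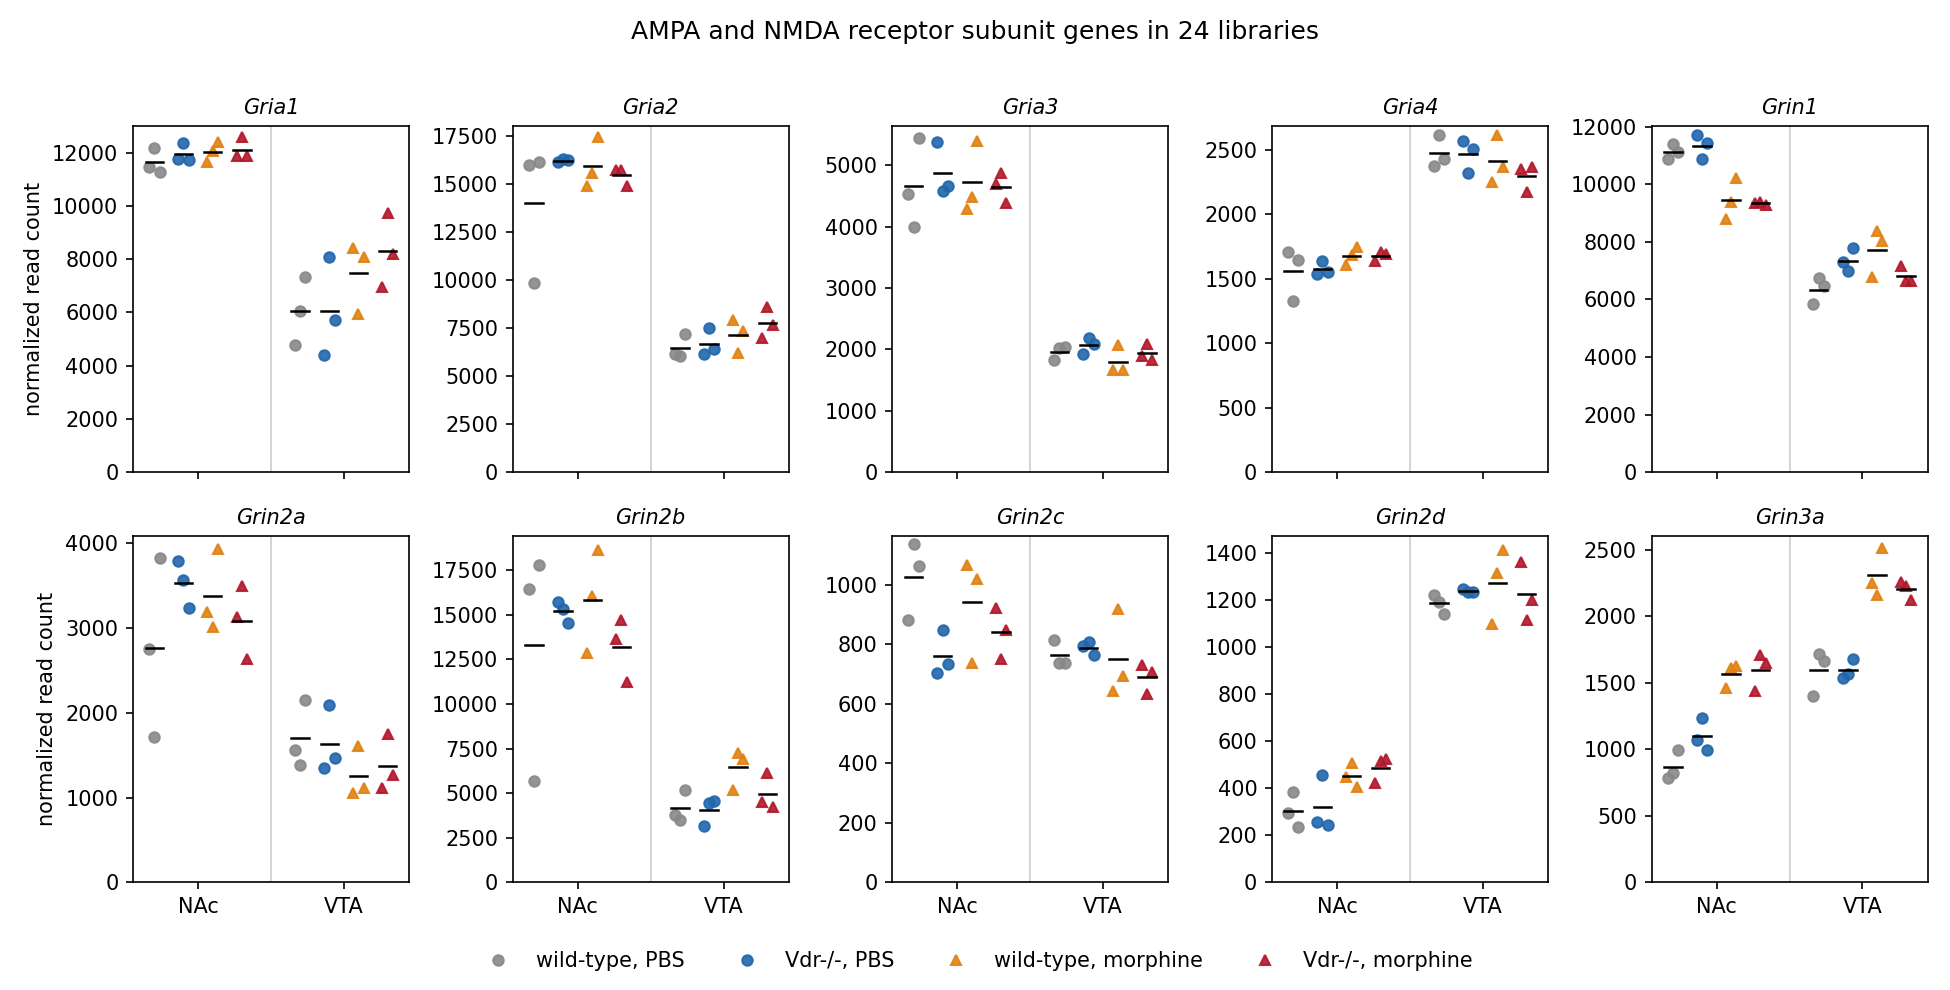
Normalized read count (vertical axis, from 0, on a scale common to all 24 libraries) of each subunit gene in the NAc and the VTA. Each point is 1 mouse, colours and shapes give genotype and injection, and black lines are the means of 3 mice; Grin3a lay higher after morphine than after PBS in both regions without overlap, and wild-type PBS mouse 2 gave the low NAc points of Gria2, Grin2a and Grin2b.

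Levels of different genes were compared as RPKM, the reads per kilobase of annotated exon scaled to the library's total, over 12 libraries of each region. In the NAc, Gria1 had the highest level on this scale at a median of 117 RPKM (range 106 to 123). The obligatory NMDA subunit Grin1 had 63.2 (54.0 to 69.3) and Gria2 had 59.5 (37.3 to 65.7), and their ranges overlapped. Grin2b followed at 35.3 (13.5 to 44.0) and Gria3 at 27.2 (23.9 to 32.0), again with overlap. Gria4 had 15.3 (12.4 to 16.2), and Grin2a and Grin2c were nearly level at 10.5 (5.66 to 12.9) and 10.04 (7.98 to 13.3). Grin3a and Grin2d closed the order at 6.38 (3.69 to 8.21) and 3.67 (2.00 to 4.67). The order depended on the length used. Per kilobase of coding sequence alone, Gria2 had 330 (207 to 364), above the median of Gria1 (249, 226 to 262) with overlapping ranges, and Grin1 (208) and Grin2b (197) were close.

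The VTA kept the same leaders at lower levels and a different tail. Gria1 had 72.4 RPKM (44.7 to 99.7), Grin1 43.9 (36.4 to 51.8) and Gria2 27.8 (23.4 to 34.0). Gria4 came next at 22.9 (21.3 to 25.0), and its range overlapped the low end of that of Gria2. Gria3 at 12.1 (10.1 to 13.5), Grin2b at 11.3 (7.83 to 17.6), Grin2d at 11.2 (10.3 to 12.7), Grin3a at 9.53 (6.89 to 12.2) and Grin2c at 8.92 (7.76 to 11.0) formed a group in which neighbours overlapped. Grin2a was lowest at 4.86 (3.68 to 7.35). Per coding kilobase, Gria1 (154.4) and Gria2 (154.0) were level in the VTA, and Grin2c (12.1) was lowest, below Grin2d (18.8) and Grin2a (19.9).

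**Figure D2:**
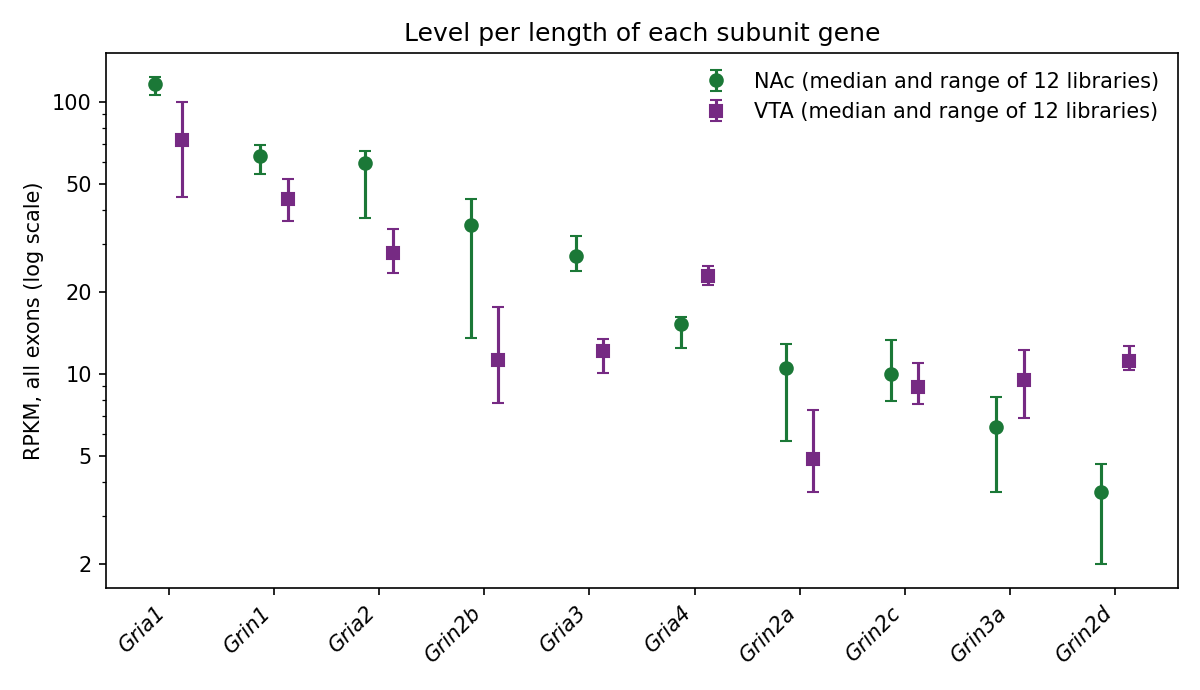
Level of each subunit gene in RPKM over all annotated exons (vertical axis, log scale), ordered by the NAc median. Points are medians and bars the range of 12 libraries of the NAc (circles) or the VTA (squares); Gria1 had the highest median in both regions on this scale (not per coding kilobase in the NAc), and Grin2d, Gria4 and Grin3a had higher medians in the VTA.

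Within the AMPA family, Gria1 made up a median of 53.3% of the summed RPKM of Gria1 to Gria4 in the NAc and 53.4% in the VTA. Gria4 held 7.00% of it in the NAc (6.46% to 7.41%) and 17.1% in the VTA (12.7% to 23.6%). Within the GluN2 family the composition differed more. Grin2b held 59.7% of the summed GluN2 RPKM in the NAc (37.7% to 63.9%) and 30.6% in the VTA (23.3% to 40.3%). Grin2d held 6.51% in the NAc (3.00% to 9.46%) and 30.7% in the VTA (25.9% to 34.4%), so that Grin2b, Grin2d and Grin2c, with 24.7%, were of similar size there. The lowest NAc share of Grin2b was that of wild-type PBS mouse 2. Per coding kilobase the Gria1 share was 34.9% and 38.3%, that of Grin2b 75.4% and 54.8% and that of Grin2d 2.53% and 16.0% (NAc and VTA), so Grin2b kept the largest GluN2 share in both regions on that scale.

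The NAc and the VTA of the same mouse were compared on reads scaled together over all 24 libraries, with mouse as a block, by limma on log2(value + 1). All 10 subunit genes passed an adjusted p of 0.05, 7 of them higher in the NAc and 3 higher in the VTA. Since 71.5% of the 16147 genes tested also passed, 34.5% higher in the NAc and 37.0% higher in the VTA, the count itself says little of these genes, and the sizes are the result. The median log2 difference, NAc minus VTA, was 0.68 over the 10 genes and -0.02 over all genes.

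Grin2b, the GluN2 subunit of slow kinetics that prevails early in life, had the largest excess in the NAc. It had 5692 to 18621 normalized reads in the NAc (median 15025) and 3174 to 7265 in the VTA (median 4548), with the overlap of the ranges due to wild-type PBS mouse 2. Its log2 difference was 1.54 ± 0.11 (SE, n = 12 mice, adjusted p = 9.26e-09), or 2.92-fold. Gria3 (1.28 ± 0.05), Gria2 (1.13 ± 0.06), Grin2a (1.10 ± 0.11), Gria1 (0.81 ± 0.09) and Grin1 (0.55 ± 0.06) were also higher in the NAc of 12 of 12 mice. For Gria3, the NAc libraries had 3998 to 5446 normalized reads and the VTA libraries 1663 to 2184.

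Grin2d, a GluN2 subunit of very slow decay known from interneurons and midbrain neurons, ran the other way. It had 235 to 524 normalized reads in the NAc (median 414) and 1095 to 1410 in the VTA (median 1228), and the regions did not overlap. Its log2 difference was -1.70 ± 0.11 (SE, n = 12 mice, adjusted p = 3.55e-09), or 3.25-fold higher in the VTA. Grin3a (-0.61 ± 0.06) and Gria4 (-0.57 ± 0.05), an AMPA subunit of fast kinetics, were also higher in the VTA of 12 of 12 mice. For the 6 genes higher in the NAc and these 3 the exact sign-flip test over 12 mice gave p = 0.000488, the smallest it can give. Grin2c, a GluN2 subunit known from cerebellum and astrocytes, differed least, by 0.24 ± 0.09 (adjusted p = 0.0186), and was higher in the NAc of 9 of 12 mice (exact sign-flip test, two-sided, p = 0.0283). All 10 genes passed without any 1 mouse. The 5 markers of cortical excitatory neurons summed to 407 to 1175 CPM in the NAc punches and 8.60 to 177 in the VTA punches, and the part of such cells in the region differences was not tested.

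Fitted per group, the 9 genes other than Grin2c passed in each of the 4 groups with the same sign. Grin2c passed in the wild-type PBS mice (0.42, adjusted p = 0.0356), where the call was lost without mouse 2 (0.32, adjusted p = 0.175) or without mouse 3 (0.37, adjusted p = 0.142). Without Vdr-/- morphine mouse 2.0, Gria1 in that group went from an adjusted p of 0.011 to 0.0955, and without wild-type morphine mouse 1.1 Grin2c passed in its group (0.64, adjusted p = 0.000836). The background in these fits was 57.2% of genes in wild-type PBS mice, 55.2% in Vdr-/- PBS mice, 45.5% in wild-type morphine mice and 43.5% in Vdr-/- morphine mice.

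**Figure D3:**
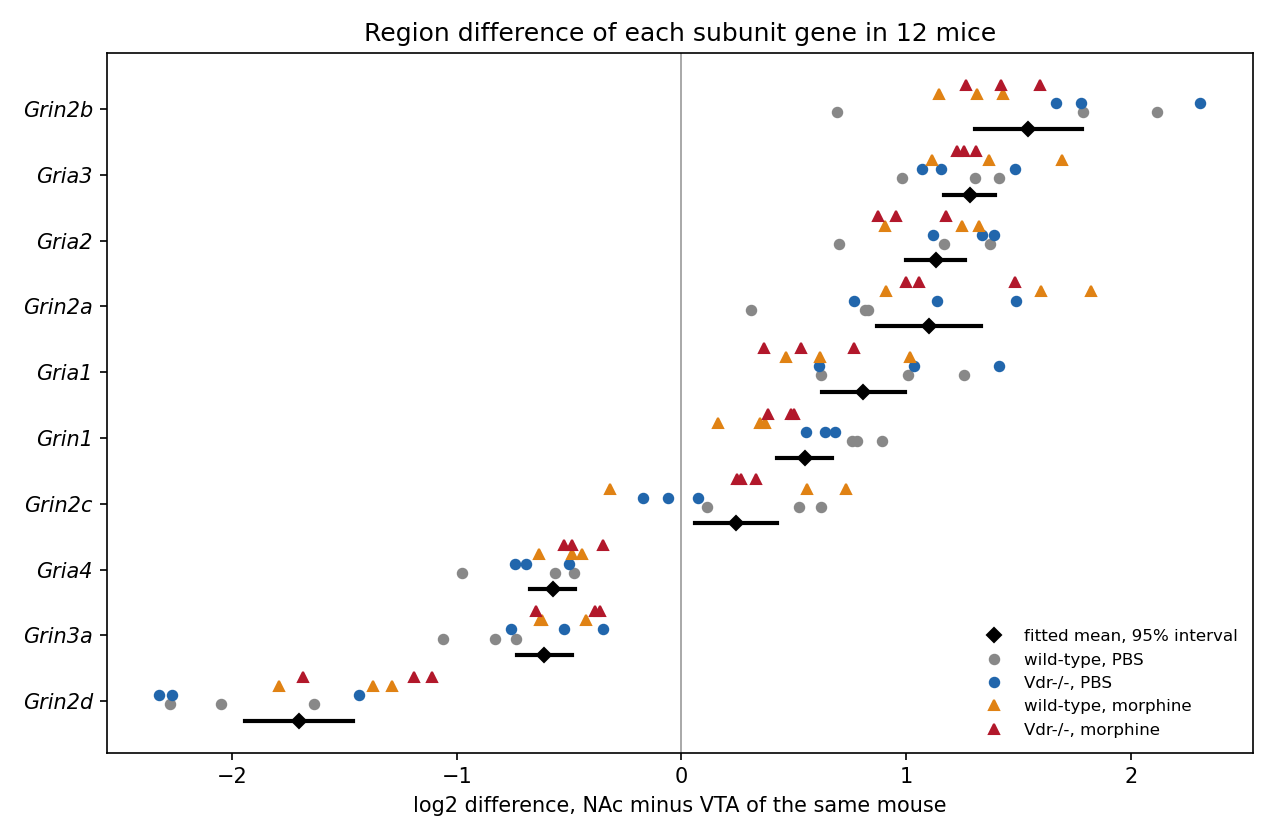
log2 difference in normalized reads between the NAc and the VTA of the same mouse (horizontal axis; positive is higher in the NAc) for each subunit gene. Coloured points are 12 mice by genotype and injection, and black diamonds with bars are the fitted mean and its 95% interval; Grin2b lay farthest to the right at 1.54 and Grin2d farthest to the left at -1.70.

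Grin1 and Grin2d, 2 of the 10 genes, passed the test of whether the region difference depended on the injection. The background was 12.4% of all genes tested, so the count itself says little of these genes. The Grin2d call was lost in most fits that left out a mouse. The 250 bases upstream of the RefSeq starts of Grin1 and Grin2d are shown because these subunit genes passed this test. The Grin1 stretch lies at chr2:25319188-25319437 and the Grin2d stretch at chr7:45866682-45866931 (GRCm38.p6, minus strand, 5′ to 3′, ending 1 base before the start). The Grin1 stretch adjoins its GENCODE locus, whereas the Grin2d stretch lies inside the GENCODE locus and is not upstream of the outermost annotated start. Capitals mark TGACG, the short form of the cAMP response element, on either strand.
Grin1: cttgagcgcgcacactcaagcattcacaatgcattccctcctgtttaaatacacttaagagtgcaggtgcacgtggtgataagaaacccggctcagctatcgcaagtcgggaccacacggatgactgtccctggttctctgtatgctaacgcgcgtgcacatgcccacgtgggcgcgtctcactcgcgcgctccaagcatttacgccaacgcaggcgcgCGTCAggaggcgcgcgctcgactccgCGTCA
Grin2d: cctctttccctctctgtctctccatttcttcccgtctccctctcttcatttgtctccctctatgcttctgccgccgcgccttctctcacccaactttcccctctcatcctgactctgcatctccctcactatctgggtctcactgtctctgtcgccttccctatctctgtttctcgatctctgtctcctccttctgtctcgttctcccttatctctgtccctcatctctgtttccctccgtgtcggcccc
The Grin1 stretch held 2 matches, starting 31 and 5 bases upstream of the start, and the Grin2d stretch held 0. Of 32817 upstream stretches of this length, 17.7% held TGACG on either strand. Neither stretch held the full cAMP response element TGACGTCA (1.55% of all stretches), the AP-1 site TGANTCA (6.75%) or the EGR site GCGGGGGCG (2.57%). Gria2, Gria4 and Grin2c were also in the sequence table, and among the 5 genes TGACG was found in Grin1 only. Matches are letters in this window and were not tested as binding sites.

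Morphine was compared with PBS within each region and genotype. Grin3a, the GluN3 subunit that lowers calcium entry through NMDA receptors, rose in all 4 comparisons. On the scale common to all libraries, its NAc level was 785 to 1234 normalized reads in the 6 PBS mice and 1439 to 1707 in the 6 morphine mice, and its VTA level was 1398 to 1717 after PBS and 2121 to 2515 after morphine. No morphine library overlapped a PBS library of the same region. The share of all genes without overlap between these 6 PBS and 6 morphine mice was not counted. The 4 comparisons share no library, but both regions come from the same mice. Over the 10 genes, the groups did not overlap for 3 genes in the NAc of wild-type mice, against 25.5% of all genes, and for 4 in Vdr-/- mice, against 37.9%. In the VTA they did not overlap for 2 genes in wild-type mice, against 44.3%, and for 6 in Vdr-/- mice, against 48.4%.

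In the NAc of wild-type mice, Grin3a had 710.4, 733 and 900.4 normalized reads after PBS and 1328, 1468 and 1474 after morphine. The log2 fold change was 0.87 ± 0.11 (SE, n = 3 and 3, limma with Benjamini-Hochberg adjustment, adjusted p = 0.0306; exact permutation p = 0.1, the smallest that 3 against 3 allows). It was the only subunit gene called there, 1 of 10 against 0.813% of 15749 genes. The adjusted p was 0.0714, 0.172 and 0.163 without morphine mouse 1.0, 1.1 or 1.2 and 0.0754 without PBS mouse 1, while the log2 fold change stayed between 0.81 and 0.98.

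In the NAc of Vdr-/- mice, Grin3a had 913, 978 and 1127 normalized reads after PBS and 1324, 1519 and 1566 after morphine. The log2 fold change was 0.55 ± 0.08 (adjusted p = 0.00127), and it passed without any 1 of the 6 mice. Here 3 of 10 subunit genes were called, against 19.1% of 15820 genes.

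In the VTA of wild-type mice, Grin3a had 1567 and 1912 normalized reads after PBS and 2389.7, 2484 and 2755 after morphine. The log2 fold change was 0.55 ± 0.10 (n = 3 and 2, adjusted p = 0.0435), 2 of 10 subunit genes being called there against 3.65% of 16187 genes. The call was lost without morphine mouse 1.2 (adjusted p = 0.175), PBS mouse 1 (0.32) or PBS mouse 2 (0.124). In the VTA of Vdr-/- mice, Grin3a had 1758 and 1923 normalized reads after PBS and 2412, 2536 and 2563 after morphine. The change on the log2 scale was 0.44 ± 0.06 (n = 3 and 2, adjusted p = 0.00924), again 2 of 10 subunit genes being called, against 10.02% of 16364 genes, and the call was lost without PBS mouse 7 (adjusted p = 0.0913). With all 3 PBS mice of each genotype, from recovered reads, the log2 fold changes in the VTA were 0.52 (wild-type, adjusted p = 0.0132) and 0.46 (Vdr-/-, adjusted p = 0.0122).

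Grin1, without which no NMDA receptor forms, fell in the NAc of Vdr-/- mice. It had 9935, 10473 and 10744 normalized reads after PBS and 8544, 8599 and 8616 after morphine, 3 values that lay within 1 narrow band below the PBS mice. The log2 fold change was -0.27 ± 0.05 (adjusted p = 0.00313), and it passed without any 1 of the 6 mice. In wild-type mice the NAc values were 9828, 10014 and 10143 after PBS and 7956, 8537 and 9258 after morphine, also without overlap, but the log2 fold change of -0.22 ± 0.09 did not pass (adjusted p = 0.269). In the VTA it was 0.27 in wild-type mice (adjusted p = 0.192) and -0.16 in Vdr-/- mice (adjusted p = 0.117).

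Grin2d rose in the NAc of Vdr-/- mice. It had 225, 237 and 416 normalized reads after PBS and 388, 473 and 482 after morphine, and PBS mouse 8 lay above the lowest morphine mouse. This was a log2 fold change of 0.66 ± 0.19 (adjusted p = 0.0295; exact permutation p = 0.2). DESeq2 did not call it (0.61, adjusted p = 0.182), and 4 of 6 fits that left out a mouse lost it: without morphine mouse 2.1 (0.108) or 2.2 (0.102), and without PBS mouse 7 (0.0688) or 9 (0.117). In wild-type mice it had 212, 266 and 341 after PBS and 368, 407 and 461 after morphine, without overlap, a log2 fold change of 0.61 ± 0.18 that did not pass (adjusted p = 0.165) and did without PBS mouse 2 (0.79, adjusted p = 0.0168). In the VTA its log2 fold changes were 0.05 in wild-type mice (adjusted p = 0.823) and -0.03 in Vdr-/- mice (adjusted p = 0.816). Kdelr1, with a median of 626 reads per library, overlaps the Grin2d locus on the opposite strand and shares 0 exon bases with it.

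In the VTA, 2 further subunit genes were called higher in 1 genotype each. The morphine effect did not differ detectably between the genotypes for either (limma, adjusted p = 0.568 for Grin2b and 0.733 for Gria1). Grin2b in wild-type mice had 3921 and 4242 normalized reads after PBS and 5720.2, 7569 and 8027 after morphine, without overlap. The log2 fold change was 0.79 ± 0.14 (n = 3 and 2, adjusted p = 0.041), and it was 0.62 (adjusted p = 0.048) with all 3 PBS mice. On the common scale, wild-type PBS mouse 3 had 5159 Grin2b reads in the VTA, against 5183 in the lowest morphine mouse, 1.0. The call was lost without morphine mouse 1.2 (adjusted p = 0.175), PBS mouse 1 (0.277) or PBS mouse 2 (0.258). In Vdr-/- mice Grin2b had 3634 and 5236 after PBS and 4775, 5132 and 6949 after morphine, which overlapped (0.35 ± 0.19, adjusted p = 0.269).

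Gria1 in the VTA of Vdr-/- mice had 5048 and 6546 normalized reads after PBS and 7924, 9331 and 11086 after morphine. Its log2 change was 0.70 ± 0.15 (n = 3 and 2, adjusted p = 0.0338). It fell to 0.48 (adjusted p = 0.18) with all 3 PBS mice, and the call was lost without morphine mouse 2.1 (adjusted p = 0.0674) or 2.2 (0.101) and without PBS mouse 7 (0.228) or 9 (0.0532). On the common scale, Vdr-/- PBS mouse 8 had 8091 Gria1 reads in the VTA against 4409 and 5724 in mice 7 and 9. Slc17a7, a marker of cortical and hippocampal excitatory neurons, had 131 CPM in the VTA of mouse 8 against 4.33 and 46.5 in mice 7 and 9, and 16.0, 153 and 74.6 CPM in the VTA of morphine mice 2.0, 2.1 and 2.2. In the VTA of wild-type PBS mice 1, 2 and 3, Slc17a7 had 3.94, 17.4 and 122 CPM. Their Gria1 reads on the common scale were 4786, 6056 and 7349. In the VTA of wild-type morphine mice 1.0, 1.1 and 1.2, Slc17a7 had 2.74, 60.6 and 18.7 CPM. Their Gria1 reads on that scale were 8427, 5962 and 8077. The part of such cells in the Gria1 values was not tested. In wild-type mice Gria1 had 5361 and 6743 after PBS and 6587, 8849 and 9301 after morphine, which overlapped (0.44 ± 0.17, adjusted p = 0.175), and it passed without morphine mouse 1.1 (0.59, adjusted p = 0.0131).

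The other subunit genes did not pass in any morphine comparison. In the NAc of wild-type mice, the intervals were widest for Grin2b (0.42, 95% interval -0.55 to 1.38) and Grin2a (0.37, -0.26 to 0.99), where PBS mouse 2 gave 5068 Grin2b reads against 14854 and 16052 in mice 1 and 3. Without that mouse the differences were -0.12 (Grin2b) and 0.05 (Grin2a). Gria2 differed by 0.24 (-0.23 to 0.70) there, by -0.01 without that mouse, and by -0.07 (-0.17 to 0.04) in Vdr-/- mice. In the VTA of Vdr-/- mice Gria2 was higher after morphine by 0.29 (0.09 to 0.48, adjusted p = 0.073; DESeq2 adjusted p = 0.017), a call also made without morphine mouse 2.0 (0.36, adjusted p = 0.0162). Leaving out morphine mouse 1.1 in the VTA of wild-type mice brought Gria2 (0.30, adjusted p = 0.0258) and Grin2a (-0.47, adjusted p = 0.0108) past the threshold. Gria3 stayed within -0.12 to 0.04 in the 4 comparisons.

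**Figure D4:**
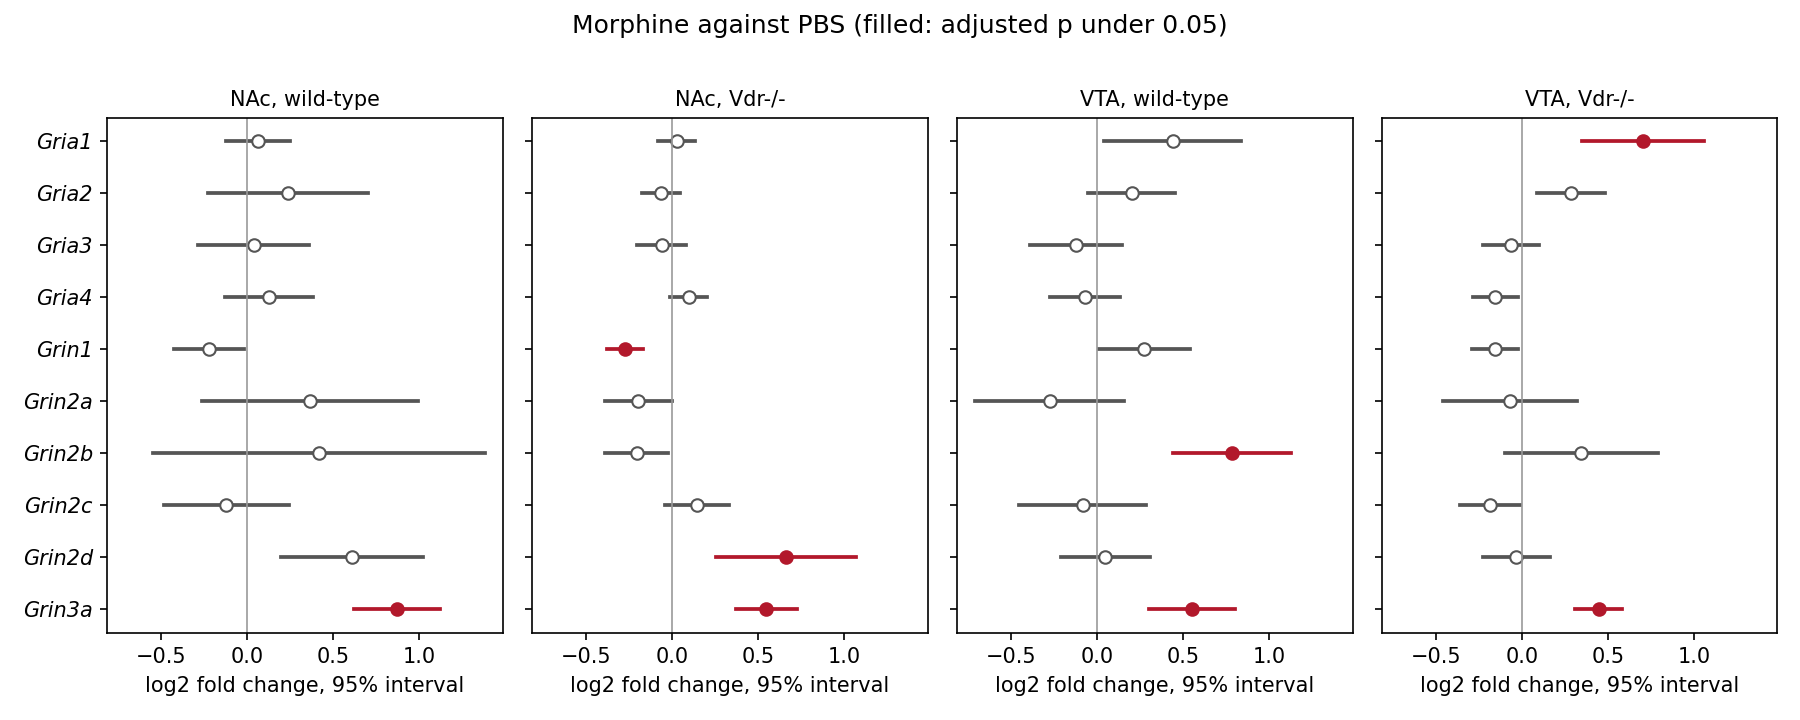
log2 fold change of morphine against PBS (horizontal axis) for each subunit gene in 4 comparisons, with 95% intervals from limma. Filled red points passed an adjusted p of 0.05; Grin3a did so in all 4 panels, between 0.44 and 0.87, and Grin2b in the NAc of wild-type mice had the widest interval, -0.55 to 1.38.

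Markers of cell types moved with the injection. In the NAc, the summed level of the 9 medium spiny neuron markers was 4356 to 5001 CPM in wild-type PBS mice and 2814 to 3582 in wild-type morphine mice, and 3770 to 4367 against 2464 to 2823 in Vdr-/- mice. Of these 9 markers, 3 were called lower in wild-type mice, against 0.400% of all genes, and 9 in Vdr-/- mice, against 9.13%. In the VTA of wild-type mice the 8 dopamine neuron markers summed to 1910 to 2431 CPM after PBS and 125 to 409 after morphine. Of these, 6 of 8 were called lower, against 1.88% of all genes. Th, which makes the precursor of dopamine, had 332 to 425 CPM in the VTA of wild-type PBS mice and 24.4 to 65.4 in wild-type morphine mice. In Vdr-/- mice the dopamine marker sum overlapped, 363 to 1818 after PBS and 453 to 936 after morphine. There 1 of 8 was called higher and 0 lower, against 4.74% and 5.28% of all genes. The 6 oligodendrocyte markers summed to 11822 to 12879 CPM (wild-type) and 11761 to 12255 (Vdr-/-) in the VTA after PBS, and to 6036 to 9997 and 7944 to 8803 after morphine. The 4 markers of midbrain glutamate and GABA neurons summed to 245 to 308 CPM in the VTA of wild-type PBS mice and to 329 to 393 after morphine, and overlapped in Vdr-/- mice (251 to 339 and 319 to 406). The sum of the 5 microglia markers was lower after morphine without overlap in all 4 comparisons. In the VTA of wild-type mice it was 218 to 256 CPM after PBS and 127 to 145 after morphine. Without overlap, the sums of oligodendrocyte and general neuron markers were also lower and that of endothelial markers higher in the NAc of Vdr-/- mice, general neuron markers were lower in the VTA of Vdr-/- mice, astrocyte and endothelial markers were lower in the VTA of wild-type mice, and those of midbrain neurons, astrocytes and oligodendrocyte precursors were higher in the NAc of wild-type mice. In the NAc of wild-type mice the astrocyte sum was 2837 to 4756 CPM after PBS, lowest in mouse 2, and 4760 to 4901 after morphine. The midbrain neuron sum there was low, 9.22 to 12.6 and 16.9 to 24.4 CPM. Of its 4 markers, 2 had at most 3 reads in every NAc library. Among single genes, the groups did not overlap for 25.5% (wild-type) and 37.9% (Vdr-/-) of all genes in the NAc. In the VTA, with 2 PBS mice of each genotype, these shares were 44.3% and 48.4%. No such share was counted for sums of markers. The part of the marker shifts in the subunit values was not tested.

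The region difference after morphine was set against that after PBS within mice. Grin1 was higher in the NAc than in the VTA by 0.55 to 0.89 (log2) in the 6 PBS mice and by 0.16 to 0.50 in the 6 morphine mice, and these did not overlap. The share of all genes without such overlap was not counted. The change of the Grin1 difference was -0.34 ± 0.06 (limma, adjusted p = 0.00523). Grin2d was lower in the NAc than in the VTA in all 12 mice, with log2 differences of -2.32 to -1.44 after PBS and -1.79 to -1.11 after morphine, which overlapped. The change was 0.59 ± 0.18 (adjusted p = 0.0467), and it was lost with no filter on low values (adjusted p = 0.0625) and in 9 of 12 fits that left out a mouse (adjusted p up to 0.112), all but those without Vdr-/- morphine mouse 2.0, wild-type PBS mouse 2 or Vdr-/- PBS mouse 8. Grin3a did not pass (0.20 ± 0.09, adjusted p = 0.162). Without wild-type morphine mouse 1.1 Grin2a passed (0.55, adjusted p = 0.0331), and without wild-type PBS mouse 2 Grin2b did (-0.57, adjusted p = 0.0109).

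Vdr-/- and wild-type mice were compared within each region and injection, the question of the study being what the receptor's loss changes in these regions. None of the 10 subunit genes was called by limma in any of the 4 comparisons. The background was 0.0690% of 15933 genes in the NAc after PBS, 0.390% of 16425 in the VTA after PBS, 0.192% of 15638 in the NAc after morphine and 0.0624% of 16029 in the VTA after morphine. At an unadjusted p of 0.05, 2, 1, 0 and 0 of the 10 genes passed, against 8.94%, 14.2%, 7.73% and 8.77% of all genes, and edgeR and DESeq2 also called 0 of 10 in each. In the NAc after PBS the log2 fold changes lay between -0.42 and 0.44, in the VTA after PBS between -0.06 and 0.21, in the NAc after morphine between -0.26 and 0.10 and in the VTA after morphine between -0.38 and 0.16. With 3 mice against 3 the smallest exact permutation p is 0.1.

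After PBS, the groups did not overlap for Grin2c and Gria2 in the NAc, against 16.9% of all genes, or for Grin1 and Grin2d in the VTA, against 20.5%. After morphine they overlapped for all 10 genes in both regions, the background being 13.5% in the NAc and 14.5% in the VTA. Grin2c in the NAc had 882, 1063 and 1114 normalized reads in wild-type and 706, 736 and 848 in Vdr-/- mice (-0.42 ± 0.11, adjusted p = 0.427). Gria2 had 9632, 15976 and 16174 against 16182, 16266 and 16289.9, and its difference of 0.26 ± 0.20 (adjusted p = 0.705) became 0.02 without wild-type mouse 2. Grin2b went from 0.37 to -0.17 and Grin2a from 0.44 to 0.12 without that mouse. Grin3a in the NAc had 786, 807 and 999.96 normalized reads in wild-type and 998, 1071 and 1234 in Vdr-/- mice (0.35 ± 0.12, adjusted p = 0.489). In the VTA, Grin1 differed by 0.21 ± 0.06 (adjusted p = 0.215) and Grin2d by 0.06 ± 0.05 (adjusted p = 0.574).

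**Figure D5:**
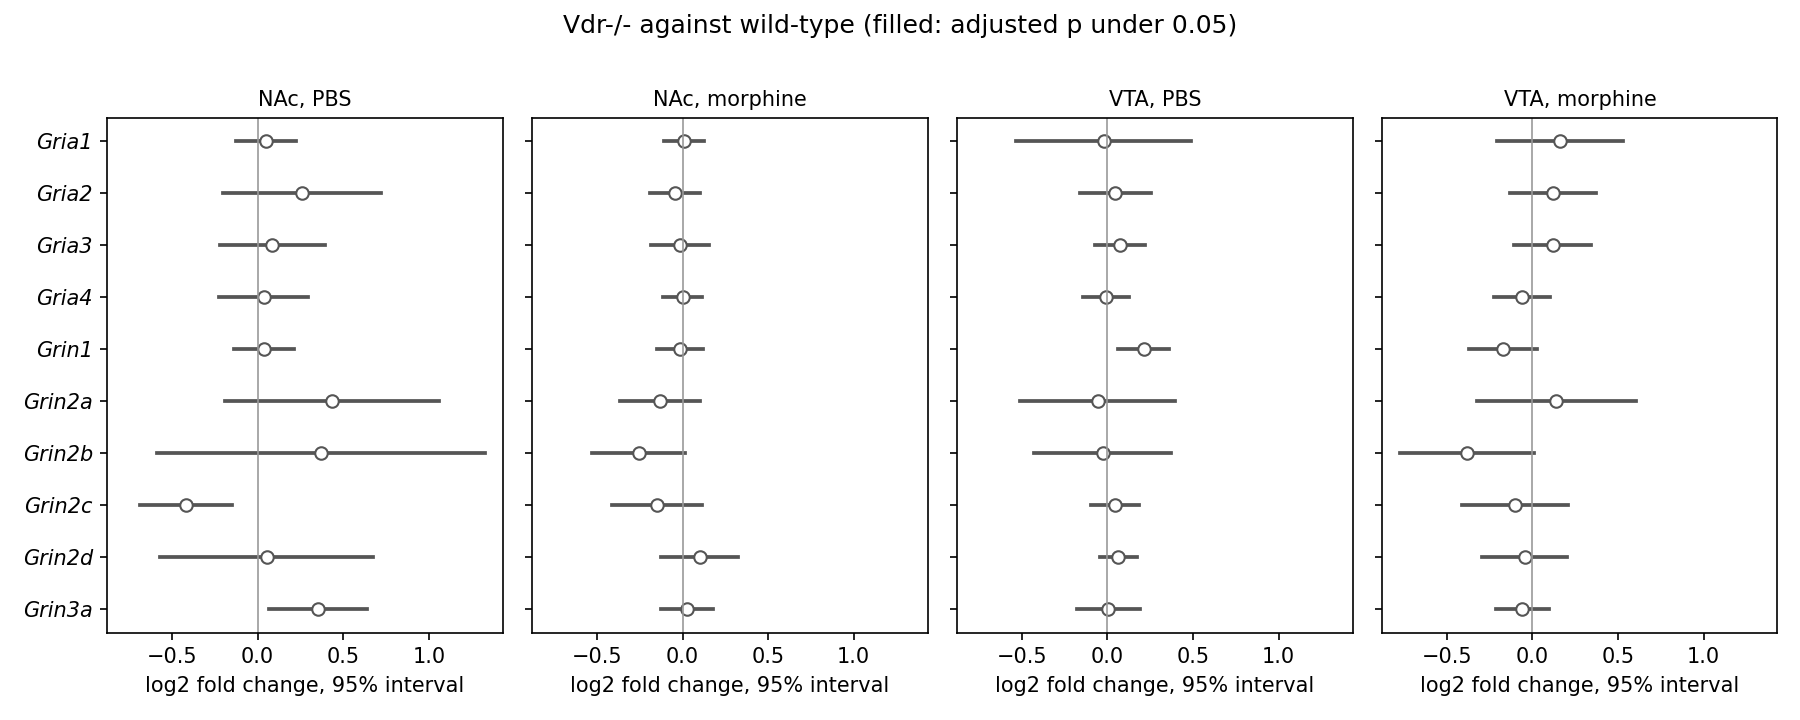
log2 fold change of Vdr-/- against wild-type mice (horizontal axis) for each subunit gene in 4 comparisons, with 95% intervals from limma. All points are open, since 0 of 10 genes passed in each panel; the widest intervals were those of Grin2b and Grin2a in the NAc after PBS, where the wild-type group holds mouse 2.

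The morphine effect did not differ detectably between the genotypes for any subunit gene. In the NAc, 0 of 10 genes and 0 of 15788 genes passed by limma, with 0 of 10 and 5.80% at an unadjusted p of 0.05. In the VTA, 0 of 10 passed against 0.0553% of 16288 genes, with 1 of 10 and 12.2% at an unadjusted p of 0.05. That gene was Grin1 in the VTA, -0.43 (95% interval -0.73 to -0.14, adjusted p = 0.234). The rise of Grin3a was smaller in Vdr-/- than in wild-type mice by 0.32 in the NAc (interval of the difference -0.65 to 0.00, adjusted p = 0.832) and by 0.11 in the VTA (-0.39 to 0.18, adjusted p = 0.783). No subunit gene passed in the test of whether the region difference depended on the genotype (0 of 10 and 0 of 16147 genes by limma, with 1 of 10 and 5.59% at an unadjusted p of 0.05). The 1 gene was Grin3a (0.21, 95% interval 0.02 to 0.40, adjusted p = 0.879), and the interval of Grin2b was -0.19 to 0.70.

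The receptors work with auxiliary AMPA subunits, scaffold and trafficking proteins, kainate and delta receptor subunits, metabotropic glutamate receptors and RNA editing enzymes, 61 genes in all. In the genotype comparisons 0 of them were called. After morphine in the NAc of wild-type mice 0 rose and 2 fell, and in Vdr-/- mice 4 rose and 11 fell, of 60 tested. In the VTA, 12 rose and 2 fell in wild-type mice (59 tested), and 6 rose and 2 fell in Vdr-/- mice (60 tested). The VTA shares of 23.7% and 13.3% lay above the backgrounds of 3.65% and 10.02%, and the NAc shares of 3.33% and 25.0% above 0.813% and 19.1%. The 61 genes were chosen with earlier results of these data known, so counts of them against a background are descriptions only. The share of 3.33% rests on 2 genes, and that of 13.3% lies near its background. By direction, the background in the NAc was 0.413% higher and 0.400% lower in wild-type mice and 9.94% and 9.13% in Vdr-/- mice, and in the VTA 1.77% and 1.88%, and 4.74% and 5.28%.

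Gsg1l, an auxiliary AMPA subunit that damps the current, fell in the NAc of both genotypes (-0.81 ± 0.09, adjusted p = 0.0199; -0.70 ± 0.08, adjusted p = 0.000327) and in the VTA of wild-type mice (-0.82 ± 0.11, adjusted p = 0.0179). The auxiliary subunits Cnih2 (0.56), Cacng4 (0.50) and Shisa7 (0.64) rose in the VTA of wild-type mice, as did Camk2a (1.08 ± 0.08, adjusted p = 0.00406), the kinase that phosphorylates AMPA receptors in plasticity, and the scaffold gene Shank2 (0.44), while Grip2 fell (-0.78). Shisa7 (0.44) and Shank2 (0.45) also rose in the VTA of Vdr-/- mice. In the NAc of Vdr-/- mice the transmembrane AMPA regulators Cacng2 (-0.22) and Cacng7 (-0.25) and the kinase Camk2b (-0.39) fell with Grin1, and the scaffold gene Homer2 rose (0.86 ± 0.10, adjusted p = 0.000383). Between regions, 42 of 60 were higher in the NAc, against 34.5% of all genes, and 15 in the VTA, against 37.0%, with log2 differences of 2.62 for Homer1 and -0.90 for Grik1. The region difference depended on the injection for 19 of 60, 3 upward and 16 downward like Grin1, against 6.26% and 6.16% of all genes.

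Over the 24 libraries, each taken as its deviation from the mean of its region, the genes most like Grin3a were Magi1 (Pearson's r = 0.936), Epb41l4b (0.934) and Camta1 (0.916), among 11450 genes with a mean of at least 100. Those most like Grin2d were Htr7 (0.909), Ubap1l and Calb2, and those most like Grin1 were Camkk1 (0.906), Cyp46a1 and Hrh3. Grm5, the group I metabotropic receptor, was among those most like Grin2b (0.907). These libraries share mice, injection and tissue composition, and the values are descriptions.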

How the data were processed

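The mRNA of NAc and VTA punches was sequenced from a directional library kit. Per the submitters' processing notes and the study's methods, the authors used CASAVA 1.8, trimmed adapters with Trimmomatic 0.36, mapped reads with STAR 2.4.2a and had it count them per gene; the strand setting of the counting is not given in the sources used here. The authors deposited 8 tables, 1 for each pair of groups, whose unit is a signal: read counts after DESeq2 scaling within the table. Since all values were whole multiples of 1 read (100% in each library, tolerance 0.01), the reads were recovered. The 22 libraries present in 2 tables gave the same reads in both.

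Genes with a mean of at least 10 were tested on log2(value + 1) within each table with limma 3.58.1 (eBayes with trend, R 4.3.3), two-sided, with Benjamini-Hochberg adjustment over all genes and a threshold of 0.05; fold changes are on this scale. Region comparisons used recovered reads scaled together by median-of-ratios size factors, with mouse as a block. Libraries with the same number in both regions were taken as the same mouse, which the labels do not state outright. Single genes were also tested by exact permutation. Alternatives were edgeR 4.0.16 with TMM, DESeq2 1.42.0, a pseudocount of 5, no filter, quantile normalization, each mouse left out, a block on the last digit of the mouse number, all VTA libraries, and coding length for levels and (chosen after seeing the data) for family shares. The limma steps were tested on simulated data. Positions and exon lengths are from GENCODE M21 (GRCm38), and upstream sequences from RefSeq (GRCm38.p6), whose table held 5 of the 10 genes.

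The subunit genes and all gene lists were chosen with earlier results of these data known. Every subunit gene was tested in each comparison, and the figures show each of them for region, morphine and genotype. The text gives the difference of every subunit gene only for region over all mice. For the other comparisons the text gives values for a selection of the subunit genes. Of the 5 synapse lists, only called genes among the 4 with the smallest adjusted p of a list and comparison were named. Genes among the 3 most correlated with a subunit gene were also named. P-values set a difference against the variation between mice of a group. In the region comparisons they set it against the variation between mice of the NAc to VTA difference. In limma this variation is moderated over all genes tested.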

Additional observations from a re-analysis of the deposited data

Results flagged for a closer look

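The change of the region difference with the injection drew attention for 2 subunit genes, by the test of the difference itself. For Grin1, the log2 difference between the NAc and the VTA of the same mouse was smaller after morphine than after PBS by a change of -0.34 (limma, adjusted p = 0.00523, n = 6 and 6 mice), and it passed in 5 of 5 other settings and without any 1 of the 12 mice. For Grin2d the change was 0.59 (adjusted p = 0.0467), toward a smaller deficit in the NAc. It passed in 4 of 5 other settings and in 3 of 12 fits that left out a mouse. In the same NAc libraries the 9 medium spiny neuron markers summed to 2464 to 3582 CPM after morphine and 3770 to 5001 after PBS, and in the VTA the dopamine neuron marker sum of wild-type mice was lower after morphine; their part in these changes was not tested. No group had 4 or more libraries, so no single library was tested as an outlier.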

How the results depend on the processing

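The direction and the call of a subunit gene were unchanged in 896 of 910 combinations of gene, comparison and alternative other than leaving out a mouse; 3 calls were lost, 2 were gained and 9 values turned sign. Lost were Grin2d for morphine in the Vdr-/- NAc with DESeq2, Gria1 in the Vdr-/- VTA with all libraries and Grin2d for region by injection with no filter. Gained were Gria1 in the Vdr-/- NAc with quantile normalization (0.17, adjusted p = 0.0303) and Gria2 in the Vdr-/- VTA with DESeq2. Values that turned sign were not called. With quantile normalization they were Grin1 -0.015 (genotype, NAc after PBS), Gria4 0.0067 (genotype, VTA after PBS) and -0.0088 (genotype, NAc after morphine), Gria2 0.048 (morphine, Vdr-/- NAc), Gria1 0.047 (genotype by injection, NAc), and Gria2 0.031 (region by injection) and -0.012 (region by genotype). With DESeq2 Gria1 was 0.00036 (genotype, VTA after PBS) and with edgeR Grin2d was -0.0096 (genotype by injection, NAc). Leaving out a mouse left 1043 of 1160 unchanged, lost 31 calls, gained 8 and turned 78 signs. The cause of these changes was not tested. Where 1 library of a group remained, it is assumed to vary like the other group.

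Counts of all genes called were more sensitive. DESeq2 called 63, 290, 51 and 95 genes for genotype (NAc and VTA after PBS, NAc and VTA after morphine), 493 and 1358 for morphine in the wild-type NAc and VTA, and 196 for genotype by injection in the VTA, where no filter and all VTA libraries gave 0. All VTA libraries gave 2001 for morphine in the wild-type VTA. The last digit of the morphine mouse numbers is shared between the genotypes, but same-digit pairs did not deviate together (correlations -0.063 to -0.016 in the NAc and -0.28 to -0.151 in the VTA); a replicate block on it called 19 genes in the NAc and 4 in the VTA, and 0 subunit genes. Without the block on mouse, all 10 subunit genes still passed between regions. Without each mouse in turn, the counts were 2 to 28 for genotype in the NAc after PBS (11 with all mice), 13 to 367 for genotype in the VTA after PBS (64 with all mice), 14 to 46 for genotype in the NAc after morphine (30 with all mice), 5 to 49 for genotype in the VTA after morphine (10 with all mice), 0 to 629 for morphine in the wild-type NAc (128 with all mice), 1557 to 3125 for morphine in the Vdr-/- NAc (3018 with all mice), 0 to 2808 for morphine in the wild-type VTA (591 with all mice), 0 to 2260 for morphine in the Vdr-/- VTA (1639 with all mice), 0 to 1 for genotype by injection in the NAc (0 with all mice), 0 to 226 for genotype by injection in the VTA (9 with all mice) and 1165 to 2292 for region by injection (2005 with all mice).

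By coding length, the median levels in RPKM were Gria1 249, Gria2 329.8, Gria3 96.5, Gria4 33.9, Grin1 208, Grin2a 42.8, Grin2b 197, Grin2c 13.6, Grin2d 6.16 and Grin3a 23.0 in the NAc, and Gria1 154, Gria2 154, Gria3 43.1, Gria4 50.7, Grin1 145, Grin2a 19.9, Grin2b 62.9, Grin2c 12.1, Grin2d 18.8 and Grin3a 34.4 in the VTA.

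The subunit genes whose difference turned sign without some mouse had these ranges of log2 difference over the mice left out. For genotype in the NAc after PBS, they were Gria3 -0.027 to 0.21, Gria4 -0.087 to 0.11, Grin2b -0.17 to 0.67 and Grin2d -0.23 to 0.23. For genotype in the VTA after PBS, they were Gria1 -0.25 to 0.18, Gria2 -0.037 to 0.12, Gria4 -0.039 to 0.040, Grin2a -0.24 to 0.12, Grin2b -0.14 to 0.14 and Grin3a -0.084 to 0.060. For genotype in the NAc after morphine, they were Gria1 -0.017 to 0.028, Gria2 -0.095 to 0.020, Gria3 -0.081 to 0.083, Gria4 -0.033 to 0.027, Grin1 -0.070 to 0.041 and Grin3a -0.024 to 0.099. For genotype in the VTA after morphine, they were Grin2a -0.046 to 0.33, Grin2c -0.20 to 0.055, Grin2d -0.15 to 0.030 and Grin3a -0.10 to 0.0019. For morphine in the wild-type NAc, they were Gria2 -0.0064 to 0.36, Gria3 -0.073 to 0.16, Grin2b -0.12 to 0.71 and Grin2c -0.22 to 0.042. For morphine in the Vdr-/- NAc, they were Gria1 -0.00034 to 0.049 and Gria3 -0.11 to 0.012. For morphine in the wild-type VTA, they were Grin2c -0.24 to 0.019 and Grin2d -0.026 to 0.15. For morphine in the Vdr-/- VTA, they were Grin2a -0.25 to 0.067 and Grin2d -0.11 to 0.031. For genotype by injection in the NAc, they were Gria3 -0.22 to 0.012, Gria4 -0.10 to 0.087, Grin1 -0.10 to 0.0046 and Grin2d -0.12 to 0.33. For genotype by injection in the VTA, they were Gria2 -0.012 to 0.16, Gria3 -0.0088 to 0.17, Grin2c -0.21 to 0.054 and Grin3a -0.25 to 0.036. For region in Vdr-/- PBS mice, they were Grin2c -0.12 to 0.0070. For region by genotype, they were Gria1 -0.14 to 0.058, Gria2 -0.072 to 0.095, Gria3 -0.13 to 0.013, Gria4 -0.028 to 0.097, Grin1 -0.044 to 0.0090, Grin2a -0.025 to 0.20 and Grin2d -0.077 to 0.15.

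The fewest reads of a subunit gene in a library were 261 (Grin2d, NAc). The 95% intervals of the genotype differences lay between -0.77 and 1.33 (log2).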
